A study of Homo sapiens with 8 samples.

Results

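The collagen genes were taken as every gene whose name in the deposited tables is COL, a number, A and a number, and that is listed in all 8 libraries of the series. There were 44 of them among 48162 listed genes. Of these, 20 had a mean level of at least 1 FPKM (a read count corrected for gene length and library size) and were tested with the 14311 genes above that level, and 24 lay below it. COL23A1 at 1.04 FPKM was just inside this limit and COL9A3 at 0.989 FPKM just outside. The libraries are total RNA from KYSE70 and KYSE450, established human lines of esophageal squamous cell carcinoma kept in RPMI medium with fetal bovine serum, at passages 5 to 10. In each line the long noncoding RNA NMR was overexpressed by transfecting pcDNA3.1 plasmid vectors with a lipid reagent, with a control labelled CON, or knocked down by infection with lentivirus made in HEK 293T cells, with a control labelled shcon. Each of these 4 groups has 1 library per line, and neither the time after delivery nor any selection nor the content of the control vectors is stated in the labels. The libraries are called plasmid control, overexpression, lentiviral control and knockdown, and the values of a line always follow that order.

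Collagens are triple helices of 3 chains, and the chain genes fall into classes by how the finished protein assembles. Fibrillar collagens form the banded fibers of connective tissue, type IV collagens form the sheet of the basement membrane, and collagens XVII and VII anchor squamous epithelium to that sheet and the sheet to the tissue beneath. Type VI chains form beaded filaments, the FACIT collagens sit on the surface of fibers, and the rest include membrane-spanning, network and multiplexin collagens. Squamous epithelial cells are known to make the anchoring and basement membrane collagens, while fibrillar collagens are mainly products of fibroblasts.

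No listed gene carries the name NMR, so neither manipulation was checked on its target. Library totals ran from 26448153 to 38003344 reads, and 1 read in a gene of 1 kb was worth 0.0263 to 0.0378 FPKM. All 8 squamous epithelial markers written for the check (TP63, KRT5, KRT14, KRT6A, EPCAM, CDH1, SFN and PERP) had a mean of at least 1 FPKM, and their summed level was 7694.7 to 26399.5 FPKM. Of 10 fibroblast and mesenchymal markers other than collagens, 2 reached a mean of 1 FPKM, with a summed level of 4.79 to 16.3 FPKM in KYSE70 and 20.1 to 23.9 FPKM in KYSE450. These 2 were THY1, at 4.12 to 14.6 FPKM in KYSE70 and at most 0.219 FPKM in KYSE450, and TWIST1, at 16.4 to 19.7 FPKM in KYSE450 and at most 0.180 FPKM in KYSE70. Of the others, DCN, LUM, PDGFRA, PDGFRB, FAP and POSTN averaged 0.00799, 0.182, 0.188, 0.0604, 0.00661 and 0.0211 FPKM, and VIM 0.546 FPKM. LUM reached 1.09 FPKM in the lentiviral control of KYSE450. ACTA2 stood at 1.44 to 2.32 FPKM in KYSE450 and at most 0.125 FPKM in KYSE70. Endothelial markers summed to 0.742 to 4.29 FPKM, mostly from VWF at 0.717 to 4.245 FPKM, with PECAM1 not listed. Leukocyte markers summed to 0.153 to 1.39 FPKM. In the knockdown library of KYSE70, mitochondrial genes held 8.63% of the summed FPKM against 3.84% to 5.75% in the other libraries. The labels do not say that libraries came from separate cultures, so every p-value reflects the spread among these 8 libraries alone, and RNA from bulk cells cannot tell fewer cells of a kind from less RNA per cell.

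The tested genes were 5 of 11 fibrillar, 5 of 6 basement membrane, both hemidesmosomal and anchoring, 2 of 5 beaded filament, 2 of 10 FACIT, 1 of 2 multiplexin, 1 of 3 other membrane-spanning and 2 of 5 network and remaining collagens. Reads of the 44 genes came to 0.167% to 0.248% of a library's total. The hemidesmosomal and anchoring pair COL17A1 and COL7A1 held 61.0% to 68.7% of them, and COL17A1 alone 44.6% to 55.2%. Basement membrane collagens held 12.1% to 14.2% in the KYSE70 libraries and 21.2% to 25.6% in the KYSE450 libraries. Fibrillar collagens held 5.01% to 14.1%, highest in the knockdown library of KYSE70, and FACIT collagens 2.40% to 6.13% in KYSE70 and 0.253% to 0.335% in KYSE450. Most collagen reads in these libraries thus came from the 2 genes of epithelial anchorage. Comparing genes by FPKM depends on the gene length that the authors divided by, which for collagens was far below the longest annotated transcript (1197 bases against 6494 for COL4A2, 2148 against 5689 for COL17A1). Levels between genes are therefore compared below per kilobase of the longest GENCODE release 29 transcript, and all other levels are FPKM as deposited.

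**Figure D1:**
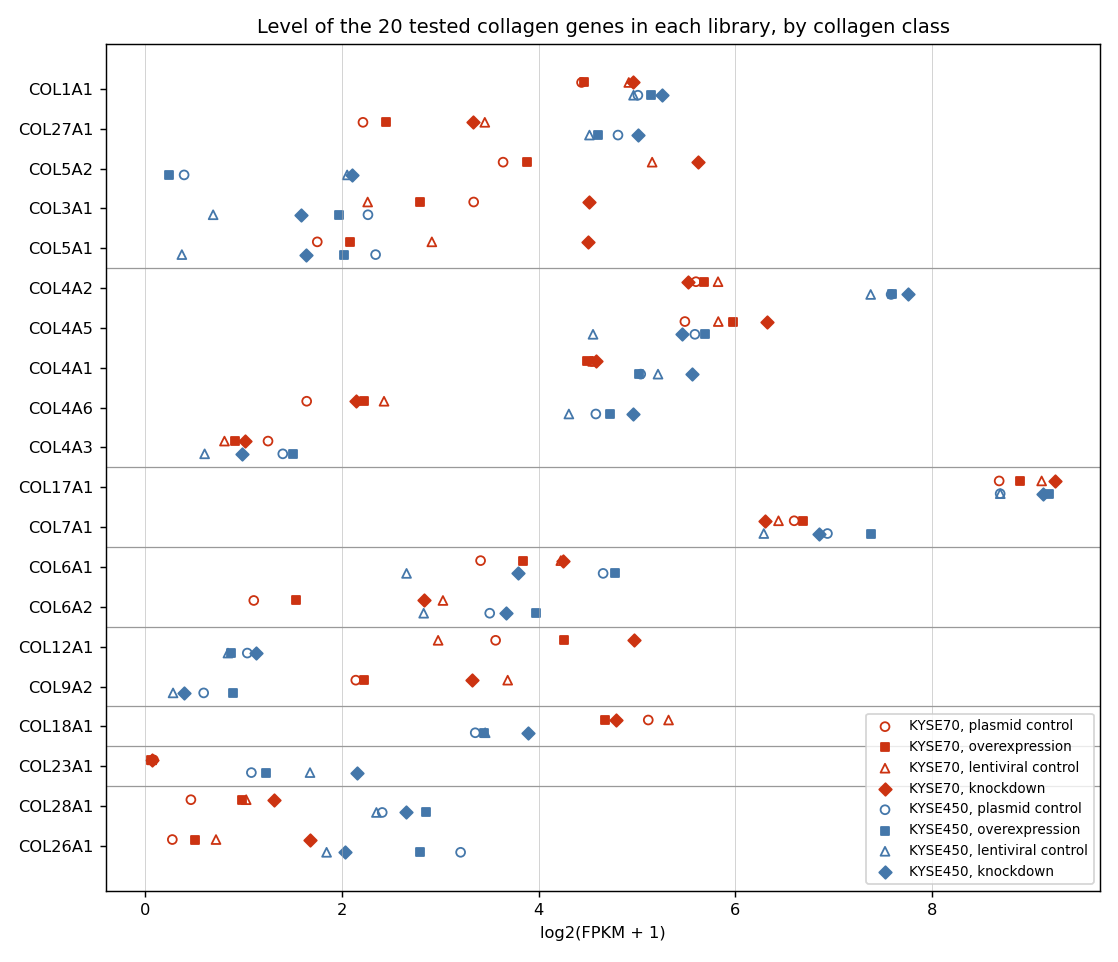
Level of the 20 tested collagen genes, as log2(FPKM + 1) on the horizontal axis, with 1 point per library, KYSE70 in red and KYSE450 in blue, open points for controls and filled points for treated libraries. Horizontal lines part the collagen classes, and COL17A1 sits furthest to the right in both lines, at 409 to 607 FPKM.

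COL17A1 encodes collagen XVII, the membrane-spanning collagen of the hemidesmosome. Its level was 409, 474, 552 and 607 FPKM in KYSE70 and 412, 580, 412 and 555 FPKM in KYSE450. The lines overlapped and did not differ beyond their spread (log2 difference of KYSE70 from KYSE450 0.06, SE 0.18, limma, adjusted p = 0.796). COL7A1 encodes the anchoring fibril collagen. It stood at 95.7, 102, 85.6 and 78.0 FPKM in KYSE70 and at 121, 165, 77.1 and 114 FPKM in KYSE450, also overlapping (-0.36, SE 0.21, limma, adjusted p = 0.187). It passed without the KYSE450 lentiviral control (-0.55, adjusted p = 0.0260) and with GC and length trends removed (-0.67, adjusted p = 0.0228). Per kilobase of longest transcript, COL17A1 averaged 193 in KYSE70 and 185 in KYSE450 and COL7A1 25.95 and 34.4, the highest and next highest collagens in KYSE70; in KYSE450, COL4A2 at 35.1 lay beside COL7A1.

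The type IV genes lie in head-to-head pairs. Starts of COL4A1 (chr13:110148963-110307233, minus strand, GENCODE release 29 on GRCh38) and COL4A2 (chr13:110305812-110513209, plus strand) are 126 bases apart in RefSeq. COL4A5 (chrX:108439844-108697545, plus strand) and COL4A6 (chrX:108155607-108439497, minus strand) start 379 or 1415 bases apart, because COL4A6 has a start next to COL4A5 and a second one further into the gene. Their stretches are shown because the balance of COL4A5 and COL4A6 differed most between the lines. They come from RefSeq (GRCh38.p14), are written 5′ to 3′ along each gene and stop before the first annotated exon base. Capitals mark CCAAT, the GC box GGGCGG and TATAAA on either strand.
COL4A5: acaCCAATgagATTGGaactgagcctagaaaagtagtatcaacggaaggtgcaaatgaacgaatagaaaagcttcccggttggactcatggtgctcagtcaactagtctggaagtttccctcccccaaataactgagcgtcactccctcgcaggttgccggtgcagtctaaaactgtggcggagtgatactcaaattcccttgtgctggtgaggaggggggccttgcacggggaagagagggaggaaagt
COL4A6, second start: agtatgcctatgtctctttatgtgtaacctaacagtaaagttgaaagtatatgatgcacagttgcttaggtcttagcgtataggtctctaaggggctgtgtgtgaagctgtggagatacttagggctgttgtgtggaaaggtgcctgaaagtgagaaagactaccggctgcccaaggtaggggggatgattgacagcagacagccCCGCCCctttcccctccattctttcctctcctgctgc
The first stretch (chrX:108439588-108439837, plus strand) lies between the COL4A5 start and the neighbouring COL4A6 start and holds 2 CCAAT matches and no GC box or TATAAA. The second (chrX:108438431-108438672, minus strand) holds 1 GC box and neither of the others. The stretch before the COL4A6 start next to COL4A5 (chrX:108439498-108439708, minus strand) is not shown and partly overlaps the first. It holds 3 CCAAT matches and no GC box or TATAAA, where 28.9% of RefSeq promoter entries hold a CCAAT in a like window. Among 35116 RefSeq promoter entries, 32.0% hold a CCAAT in a window of the same place and length as the first, and 41.7% a GC box in one like the second. A match describes letters only. An entry was found for 32 of the 44 genes.

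COL4A1 and COL4A2 encode the common chains of the basement membrane network, and both were higher in KYSE450. COL4A2 stood at 47.5, 50.4, 55.6 and 44.8 FPKM in KYSE70 and at 190.5, 192, 165 and 215 FPKM in KYSE450, with no overlap (log2 difference of KYSE70 from KYSE450 -1.92, SE 0.12, limma, adjusted p = 1.51e-06). COL4A1 stood at 22.3, 21.4, 22.4 and 22.9 FPKM against 31.8, 31.5, 36.1 and 46.1 FPKM (-0.67, SE 0.14, adjusted p = 0.00368). Its call was lost with the control libraries alone (-0.58, adjusted p = 0.113). COL4A2 averaged 3.84 times as much in KYSE450 as in KYSE70, and COL4A1 1.64 times. The balance of the 2 chains therefore differed between the lines. Per kilobase of longest transcript the ratio of COL4A2 to COL4A1 was 0.930 to 1.18 in the 4 KYSE70 libraries and 2.18 to 2.90 in the 4 KYSE450 libraries. An exact permutation test gave a two-sided p = 0.0286, the smallest that 4 libraries against 4 allow, and the same value after adjustment over the 2 ratios tested. Since the ratio was chosen with these levels known, that p follows from the lack of overlap and is no separate support. The 2 genes overlap by 1422 bases in the annotation on opposite strands, and whether counting used strand is not given.

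COL4A5 and COL4A6 encode the chains of the epithelial basement membrane network. COL4A6 was higher in KYSE450, at 22.9, 25.5, 18.8 and 30.1 FPKM, than in KYSE70, at 2.13, 3.67, 4.39 and 3.42 FPKM (-2.53, SE 0.21, limma, adjusted p = 7.23e-06), and averaged 7.16 times as much. COL4A5 showed no such gap: it stood at 43.8, 61.8, 55.7 and 78.8 FPKM in KYSE70 and at 47.1, 50.8, 22.5 and 42.9 FPKM in KYSE450 (0.58, SE 0.27, adjusted p = 0.0976). The ratio of COL4A5 to COL4A6 per kilobase of longest transcript was thus 7.31 to 13.3 in KYSE70 and 0.688 to 1.18 in KYSE450 (exact permutation test, two-sided p = 0.0286). Both ratios tested were chosen with the levels of these genes known, so their p-values only restate that the lines did not overlap. COL4A3, which joins a network with COL4A5, was low and overlapped between the lines, at 1.38, 0.889, 0.752 and 1.03 FPKM in KYSE70 and 1.64, 1.84, 0.523 and 0.984 FPKM in KYSE450. Its partner COL4A4 reached at most 1.05 FPKM and had a mean below the test limit, with 71 to 233 reads per library. These genes also lie head to head. The ratio of COL4A4 to COL4A3 per kilobase of longest transcript was 1.34 to 2.28 in KYSE70 and 1.04 to 1.83 in KYSE450. It overlapped between the lines and was not tested.

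**Figure D2:**
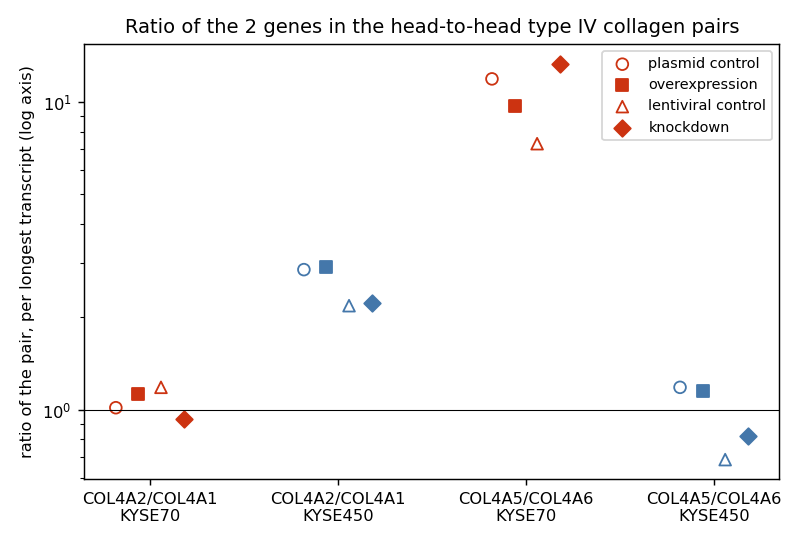
Ratio of the 2 genes in the head-to-head type IV pairs COL4A2/COL4A1 and COL4A5/COL4A6 on a log axis, per kilobase of longest transcript, with 1 point per library and marker shape giving the group. The pair COL4A4/COL4A3, whose ratio overlapped between the lines, is not drawn. The lines do not overlap for either drawn pair: 0.930 to 1.18 against 2.18 to 2.90 for COL4A2/COL4A1, and 7.31 to 13.3 against 0.688 to 1.18 for COL4A5/COL4A6.

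Of the 20 tested members, 13 differed between KYSE70 and KYSE450 at an adjusted p of 0.05, where 50.3% of all tested genes did. Of these, 5 were higher in KYSE70 (24.7% of all genes) and 8 in KYSE450 (25.6% of all genes), and the libraries of the lines did not overlap for 12 members (48.6% of all genes). The balance of directions depended on the filter. With no filter on low genes, 16 of 44 members were called, 9 higher in KYSE70 and 7 in KYSE450, where 8779 of 35668 genes were called. The members' median difference was -0.24 and that of all genes -0.02, both as log2(FPKM + 1), KYSE70 minus KYSE450; this scale understates differences of low genes. Each line is a single line measured in 4 libraries of differing treatment, so these are differences between KYSE70 and KYSE450 only.

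The fibrillar class was split between the lines. COL5A2, a chain of the fiber-nucleating type V collagen, stood at 11.5, 13.7, 34.6 and 48.2 FPKM in KYSE70 and at 0.318, 0.188, 3.16 and 3.31 FPKM in KYSE450, with every KYSE70 library above every KYSE450 library (3.37, SE 0.57, limma, adjusted p = 0.000876). COL3A1, the type III chain of pliant tissues, stood at 9.13, 5.95, 3.80 and 21.9 FPKM in KYSE70 and 3.81, 2.93, 0.617 and 2.01 FPKM in KYSE450, overlapping by the KYSE70 lentiviral control (1.60, SE 0.48, adjusted p = 0.0201). Its call was lost without the KYSE450 lentiviral control (1.29, adjusted p = 0.0530) and with the controls alone (1.32, adjusted p = 0.170), and with no filter it stood at an adjusted p of 0.0508. COL27A1, a short fibrillar collagen of cartilage, went the other way, at 3.65, 4.46, 9.95 and 9.07 FPKM in KYSE70 against 27.0, 23.4, 21.9 and 31.2 FPKM in KYSE450 (-1.87, SE 0.28, adjusted p = 0.000471). COL5A1, the main type V chain, overlapped widely, at 2.37, 3.25, 6.54 and 21.6 FPKM against 4.08, 3.07, 0.298 and 2.11 FPKM (1.22, SE 0.60, adjusted p = 0.121).

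COL1A1 and COL1A2 encode the 2 chains of type I collagen. COL1A1 had 20.7, 21.0, 29.2 and 30.2 FPKM in KYSE70 and 31.2, 34.2, 30.2 and 37.0 FPKM in KYSE450, from 724 to 1322 reads per library. Every KYSE450 library lay above every KYSE70 library, though narrowly and without passing the test (-0.40, SE 0.16, limma, adjusted p = 0.0649). It passed without the KYSE70 knockdown library (-0.49, adjusted p = 0.0238) and with median-ratio scaling (-0.39, adjusted p = 0.0331). COL1A2 was near absent, at 0 to 0.262 FPKM and 0 to 13 reads per library. COL1A1 was therefore read in every library with almost no reads of its partner chain. Among the fibrillar genes below the limit, COL11A2 reached 0.765 FPKM, COL24A1 0.155 FPKM and COL11A1 0.0712 FPKM. COL5A3 reached 1.10 FPKM, with 25 to 102 reads in KYSE70 and 1 to 10 in KYSE450, and COL2A1 0.805 FPKM, with 26 to 40 and 3 to 6 reads.

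Both tested FACIT genes of the 10 listed were higher in KYSE70. COL12A1, which coats fibers in dense tissue, stood at 10.8, 18.1, 6.89 and 30.4 FPKM in KYSE70 and 1.06, 0.834, 0.795 and 1.19 FPKM in KYSE450, a mean 17.1 times as high (2.97, SE 0.37, limma, adjusted p = 0.000120). COL9A2, a chain of the cartilage FACIT collagen IX, stood at 3.42, 3.68, 11.9 and 9.04 FPKM against 0.513, 0.855, 0.220 and 0.317 FPKM (2.30, SE 0.35, adjusted p = 0.000453). Neither gene overlapped between the lines. COL9A3 had its highest value, 2.37 FPKM, in the lentiviral control of KYSE70, COL16A1 reached 1.91 FPKM in that library too, and COL20A1 reached 0.783 FPKM there. The other FACIT genes, COL9A1, COL14A1, COL19A1, COL21A1 and COL22A1, stayed at or under 0.0998 FPKM.

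COL18A1, a multiplexin of basement membranes whose end fragment is endostatin, was higher in KYSE70, at 33.6, 24.6, 39.0 and 26.5 FPKM, than in KYSE450, at 9.24, 9.87, 9.98 and 13.9 FPKM (1.44, SE 0.19, limma, adjusted p = 0.000172). SLC19A1, on the opposite strand, overlaps 20149 bases of it at a mean of 27.6 FPKM, and the strand setting of the counts is not given. The other multiplexin, COL15A1, reached 0.111 FPKM. Among the membrane-spanning collagens, COL23A1 stood at 1.12, 1.35, 2.20 and 3.46 FPKM in KYSE450 and had 2 or 3 reads in each KYSE70 library (-1.47, SE 0.23, adjusted p = 0.000508), too few for a fold. COL25A1 (at most 1.03 FPKM) had 77 and 43 reads in the lentiviral libraries of KYSE450 and 0 to 5 in the other libraries, and COL13A1 (at most 0.582 FPKM) had 26 and 37 reads in the lentiviral libraries of KYSE70 and 1 to 8 elsewhere. Both lay below the limit and were fitted only with no filter on low genes. The difference between lentiviral and plasmid libraries was compared there between the lines (KYSE70 minus KYSE450), and neither gene passed. COL25A1 was at -0.79 (limma, adjusted p = 0.0533) and COL13A1 at 0.35 (adjusted p = 0.127).

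COL28A1 and COL26A1, grouped with the network collagens, were higher in KYSE450. COL28A1 stood at 0.383, 0.975, 1.04 and 1.48 FPKM in KYSE70 and 4.32, 6.24, 4.11 and 5.28 FPKM in KYSE450 (-1.62, SE 0.21, limma, adjusted p = 0.000151). COL26A1 stood at 0.213, 0.420, 0.650 and 2.19 FPKM against 8.24, 5.94, 2.595 and 3.09 FPKM (-1.67, SE 0.37, adjusted p = 0.00437). The lines did not overlap for either gene. COL8A1, a network collagen of vessel walls below the limit, reached 2.16 FPKM and had 134, 46, 96 and 55 reads in KYSE70 and 10, 11, 4 and 6 in KYSE450; COL10A1 reached 0.996 FPKM in the KYSE450 overexpression library, and COL8A2 reached 0.0496 FPKM.

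The beaded filament genes COL6A1 and COL6A2 lie on chromosome 21, 93046 bases apart. COL6A2 was higher in KYSE450, at 10.3, 14.7, 6.12 and 11.7 FPKM, than in KYSE70, at 1.15, 1.91, 7.16 and 6.16 FPKM, with overlap (-1.37, SE 0.44, limma, adjusted p = 0.0262). That call was lost without the plasmid control of KYSE70 (-1.02, adjusted p = 0.0595) or of KYSE450 (-1.36, adjusted p = 0.0533), without the overexpression library of KYSE70 (-1.17, adjusted p = 0.0670) or of KYSE450 (-1.21, adjusted p = 0.0702), and without the KYSE450 knockdown library (-1.31, adjusted p = 0.0638). It was also lost with the controls alone (-1.10, adjusted p = 0.262) and with no filter on low genes (adjusted p = 0.0625). COL6A1 stood at 9.63, 13.3, 17.7 and 18.1 FPKM against 24.2, 26.5, 5.31 and 12.8 FPKM, and the lines did not part (-0.04, SE 0.43, adjusted p = 0.950). The third chain of the type VI trimer, COL6A3, was near absent at 0 to 7 reads per library and at most 0.0440 FPKM. COL6A6 reached 0.137 FPKM and COL6A5 0.00588 FPKM. Of the 24 genes below the limit, COL1A2, COL20A1 and COL25A1 were above 0 in 7 libraries, COL6A3 and COL19A1 in 6, COL9A1 and COL15A1 in 5, COL14A1, COL21A1 and COL22A1 in 4 and COL6A5 in 2, and the others in all 8.

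**Figure D3:**
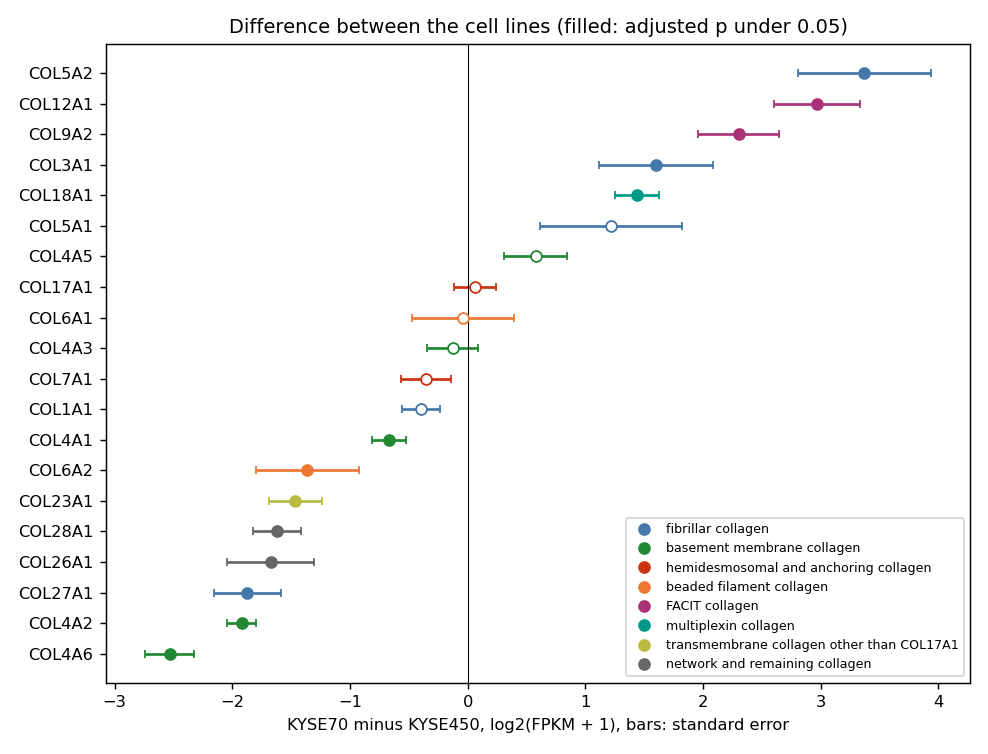
Difference of KYSE70 from KYSE450 for the 20 tested collagen genes, in log2(FPKM + 1), with bars of 1 standard error, colors for the collagen class and filled points for an adjusted p under 0.05. The difference runs from -2.53 for COL4A6 to 3.37 for COL5A2, and the fibrillar genes stand on both sides of 0.

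Genes that act on collagens were counted from lists of the pathway, and the counts are to be read against the 50.3% of all tested genes that differed between the lines. Between the lines, 8 of the 16 tested folding and hydroxylation genes passed, 3 higher in KYSE70 and 5 in KYSE450. PLOD2, a lysyl hydroxylase, averaged 0.0703 FPKM in KYSE70 and 38.2 FPKM in KYSE450 (-5.18, SE 0.16, limma, adjusted p = 1.27e-08), and the prolyl isomerase FKBP14 0.514 and 24.4 FPKM (-4.10). LEPREL2 (-2.75) and FKBP7 (-1.42), a prolyl hydroxylase and another isomerase, were also higher in KYSE450. All 4 tested processing genes passed: BMP1, a procollagen C-proteinase, was higher in KYSE70 (2.67), and PCOLCE (-2.42), ADAMTS3 (-1.94) and PCOLCE2 (-1.91) were higher in KYSE450. All 4 tested crosslinking genes passed as well, LOXL2 (1.47) higher in KYSE70 and PXDN (-3.63), LOX (-1.94) and LOXL3 (-1.26) higher in KYSE450. PXDN, whose product crosslinks type IV networks, had at most 0.0476 FPKM in KYSE70 and 4.87 to 21.8 FPKM in KYSE450.

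Of 5 tested export genes, MIA3 (0.52) and KLHL12 (0.46) were higher in KYSE70 and the other three did not pass. Among 4 tested receptors, the integrin chain ITGB1 (1.64) was higher in KYSE70 and the discoidin receptor DDR1 (-1.21) in KYSE450. Of 7 tested basement membrane partners 4 passed: LAMB1 (0.54) was higher in KYSE70 and NID1 (-3.20), LAMA5 (-0.62) and LAMC1 (-0.56) in KYSE450. The hemidesmosome partners were all 8 tested and gave 6 calls. ITGB4, the integrin chain that binds collagen XVII, was at 117 to 145.5 FPKM in KYSE70 and 0.331 to 1.58 FPKM in KYSE450 (6.19, SE 0.20, limma, adjusted p = 1.79e-08), while COL17A1 overlapped between the lines. DST (1.37), a plakin of the hemidesmosome, was also higher in KYSE70, and LAMA3 (-1.58), a laminin chain, was among the 4 higher in KYSE450. Of 5 tested collagen-degrading genes, MMP14 (1.01) was higher in KYSE70 and MMP13 (-5.44), MMP2 (-1.55) and MMP1 (-1.41) in KYSE450.

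The arms are the 4 plasmid and the 4 lentiviral libraries. Delivery, time, selection and any batch of the arms cannot be told apart. COL5A2 was the one member to pass between the arms, where 4.02% of all genes did: it was higher in the lentiviral libraries by 1.69 (SE 0.16, limma with cell line as a block, adjusted p = 0.0187). The 2 lentiviral libraries lay above the 2 plasmid libraries in both lines, 34.6 and 48.2 against 11.5 and 13.7 FPKM in KYSE70 and 3.16 and 3.31 against 0.318 and 0.188 FPKM in KYSE450. The mean ratio on FPKM was 3.29 in KYSE70 and 12.8 in KYSE450. Its call was lost without the plasmid control of KYSE70 (1.65, adjusted p = 0.0519) or KYSE450 (1.74, adjusted p = 0.0695), the lentiviral control of KYSE70 (1.78, adjusted p = 0.0638) or KYSE450 (1.60, adjusted p = 0.136), or the KYSE70 knockdown library (1.65, adjusted p = 0.0644), and without the block (adjusted p = 0.924). It was also lost with the controls alone (adjusted p = 0.0527), the treated libraries alone (adjusted p = 0.227) and no filter on low genes (adjusted p = 0.0983). Among all called genes, 74.8% were higher in the lentiviral libraries, and 51.0% with median-ratio scaling. Members had a median of 0.17 and all genes 0.07, the latter -0.02 with that scaling.

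The next 5 members by p did not pass between the arms. COL7A1 was at -0.43 (SE 0.16, limma, adjusted p = 0.145), lower in the lentiviral libraries of both lines without overlap. COL4A3 followed at -0.41 (SE 0.18, adjusted p = 0.192), COL27A1 at 0.56 (SE 0.25, adjusted p = 0.199), COL1A1 at 0.26 (SE 0.14, adjusted p = 0.275) and COL23A1 at 0.38 (SE 0.21, adjusted p = 0.286).

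The arms were then set apart by line. In KYSE70, 11 members had both lentiviral libraries above both plasmid libraries (42.7% of all genes) and 1, COL7A1, had them below (21.5%). In KYSE450, 4 had them above (35.2%), namely COL4A1, COL18A1, COL5A2 and COL23A1, and 8 had them below (32.3%), COL7A1, COL4A5, COL6A1, COL3A1, COL5A1, COL9A2, COL26A1 and COL4A3. The difference between the arms itself differed between the lines for 4 members, where 6.88% of all genes did: COL6A1, COL6A2, COL9A2 and COL26A1. In each of the 4 it was positive in KYSE70 and negative in KYSE450. The KYSE450 side of COL9A2 rests on few reads, 15 and 27 in the plasmid and 9 and 10 in the lentiviral libraries. So does the KYSE70 side of COL26A1, with 16 and 30 against 41 and 138 reads.

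COL6A2 went from 1.15 and 1.91 FPKM in the plasmid libraries of KYSE70 to 7.16 and 6.16 FPKM in the lentiviral ones, and went from 10.3 and 14.7 to 6.12 and 11.7 FPKM in KYSE450 (difference of the arm effects 2.10, SE 0.42, limma, adjusted p = 0.0292). In KYSE450 the arms of COL6A2 overlapped. COL6A1 went from 9.63 and 13.3 to 17.7 and 18.1 FPKM in KYSE70 and from 24.2 and 26.5 to 5.31 and 12.8 FPKM in KYSE450 (2.11, SE 0.46, adjusted p = 0.0359). The gap was thus wider in KYSE70 for COL6A2 (1.61 against -0.49) and in KYSE450 for COL6A1 (0.61 against -1.49). Per kilobase of longest transcript, the ratio of COL6A1 to COL6A2 was 4.95 and 4.14 in the plasmid and 1.47 and 1.74 in the lentiviral libraries of KYSE70. In KYSE450 it was 1.39, 1.07, 0.515 and 0.649. COL9A2 went from 3.42 and 3.68 to 11.9 and 9.04 FPKM and from 0.513 and 0.855 to 0.220 and 0.317 FPKM (1.73, SE 0.26, adjusted p = 0.0150), and COL26A1 from 0.213 and 0.420 to 0.650 and 2.19 FPKM and from 8.24 and 5.94 to 2.595 and 3.09 FPKM (1.87, SE 0.42, adjusted p = 0.0397). COL5A1 had the widest gap of the members, 1.79 in KYSE70 against -1.18 in KYSE450, and missed the threshold (2.97, SE 0.75, adjusted p = 0.0550), as did COL27A1 (1.01, SE 0.27, adjusted p = 0.0636). COL23A1 (-0.77, SE 0.26, adjusted p = 0.111), COL1A1 (0.46, SE 0.20, adjusted p = 0.182) and COL4A5 (0.98, SE 0.43, adjusted p = 0.189) did not pass either. Members had a median of 0.47 and all genes 0.12; 76.7% of all calls were positive, and 53.1% with median-ratio scaling, under which the median of all genes was -0.05 and the 4 members kept their calls. Among the markers, 1 of 8 tested squamous genes and 1 of 2 tested fibroblast and mesenchymal genes passed the same test. CDH1, the epithelial cadherin, stood at 13.2 and 11.9 FPKM in the plasmid and 30.4 and 48.9 FPKM in the lentiviral libraries of KYSE70, and at 143 and 164.5 against 103.5 and 109.8 FPKM in KYSE450 (2.07, SE 0.30, limma, adjusted p = 0.0141). THY1 stood at 4.12 and 5.55 against 14.6 and 11.5 FPKM in KYSE70 and at most at 0.219 FPKM in KYSE450 (1.08, SE 0.26, adjusted p = 0.0489), and TWIST1 did not pass (-0.14, SE 0.22). The part of these genes in the members' values was not tested.

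These 4 calls depended on single libraries. None was kept without the plasmid control of KYSE70, either overexpression library or the lentiviral control of KYSE450, where adjusted p-values lay between 0.0697 and 0.155 and the differences between 1.54 and 2.32. Without the plasmid control of KYSE450, only COL9A2 was called (adjusted p = 0.0474), and without the KYSE450 knockdown library COL26A1 was lost (1.96, adjusted p = 0.0888). Without the lentiviral control or the knockdown library of KYSE70, the difference was 3.76 and 2.17 for COL5A1 and 0.95 and 1.07 for COL27A1. For COL3A1 it was 2.43 without the former. Those fits keep a single lentiviral library of KYSE70 and called many genes outside the family, so no calls are given for these members. With a pseudocount of 0.1, COL26A1 missed the threshold (2.98, adjusted p = 0.0515) and COL5A2 passed in the negative direction (-1.57, adjusted p = 0.0459), its arm ratio being wider in KYSE450; it also passed with limma's voom on recovered reads (adjusted p = 0.0398). With no filter on low genes none of the 4 passed, and with GC and length trends removed COL26A1 did not (1.58, adjusted p = 0.0721). A promoter was sought for the neighbouring type VI genes COL6A1 and COL6A2, and no entry was found for COL6A1. COL6A2 was called both between the lines and in the arms by line. So were COL9A2 and COL26A1, whose promoters are not shown. The COL6A2 stretch of RefSeq (GRCh38.p14, chr21:46097862-46098096, plus strand, 5′ to 3′) stops before the first annotated exon base.
COL6A2: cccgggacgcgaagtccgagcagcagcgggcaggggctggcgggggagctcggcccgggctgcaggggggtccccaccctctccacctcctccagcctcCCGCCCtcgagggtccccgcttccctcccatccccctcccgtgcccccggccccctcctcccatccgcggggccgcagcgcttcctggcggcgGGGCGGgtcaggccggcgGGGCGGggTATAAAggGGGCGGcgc
Capitals mark 4 matches to the GC box GGGCGG and 1 to TATAAA, on either strand, where 40.7% and 10.5% of all promoter entries hold at least 1 in a window of the same place and length.

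**Figure D4:**
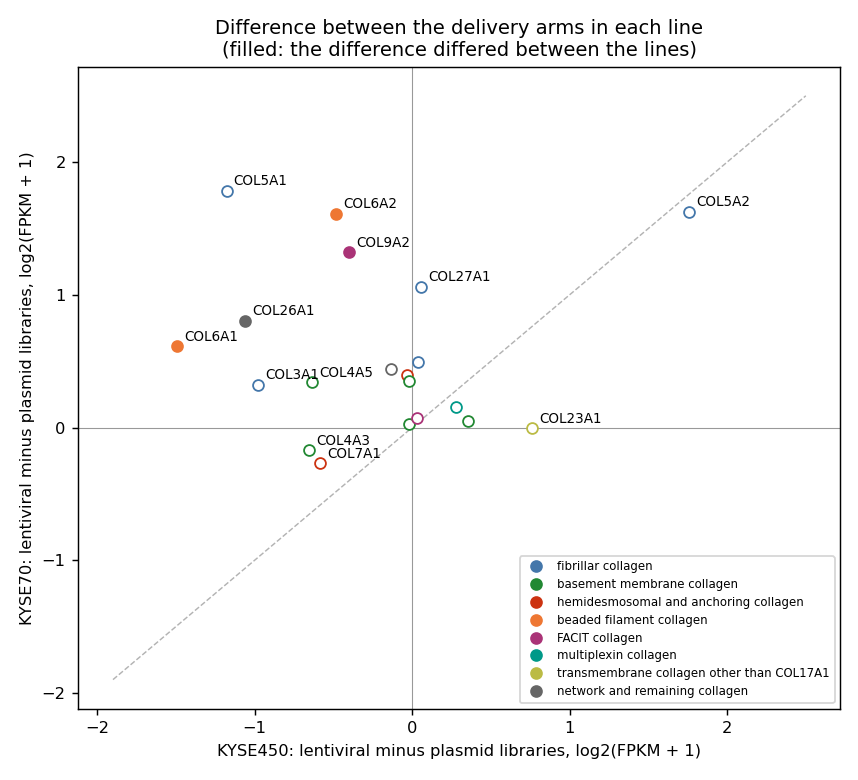
Difference between the lentiviral and the plasmid libraries for the 20 tested collagen genes, KYSE450 on the horizontal and KYSE70 on the vertical axis, in log2(FPKM + 1), with colors for the class, filled points where the difference itself differed between the lines and a dashed line of equal difference. COL5A2 lies near the dashed line at 1.63 in KYSE70 and 1.76 in KYSE450, and COL6A1, COL6A2, COL9A2 and COL26A1 lie above it and left of 0.

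FKBP14 (0.76, limma, adjusted p = 0.0442) was the only one of the listed pathway genes to pass between the arms. For 6.88% of all tested genes the difference between the arms differed between the lines. Of the pathway lists, it did for 2 of 16 tested folding and hydroxylation genes and 2 of 4 crosslinking genes. The count was 1 each of 4 receptors, 7 basement membrane partners and 5 degrading genes. No export, processing or hemidesmosome gene passed. The difference between the arms differed between the lines for LEPREL1 (-2.30), COLGALT1 (-0.92) and LOX (-1.50) in the negative direction, that is, higher in KYSE450. It did so for PXDN (1.54), the collagen-uptake receptor MRC2 (1.97), LAMB2 (1.57) and MMP2 (1.67) in the positive direction. PXDN had at most 0.0476 FPKM in KYSE70, so its value comes from KYSE450. There it stood at 19.0 and 21.8 FPKM in the plasmid and 4.87 and 8.72 FPKM in the lentiviral libraries. MMP2 stood at 10.9 and 8.64 against 3.28 and 3.91 FPKM in KYSE450, and at 1.24 and 0.862 against 2.28 and 1.37 FPKM in KYSE70. MRC2 and LAMB2 were higher in the lentiviral libraries of KYSE70 and lower in those of KYSE450.

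Knockdown of NMR was read against the lentiviral control of the same line. No member passed the test (limma, 0% of all genes called at an adjusted p of 0.05, 1794 at an unadjusted p under 0.05, smallest adjusted p 0.0587; limma's voom on recovered reads called 4). With n = 2 pairs, the largest changes were in COL3A1 and COL5A1, 2 of the 5 tested fibrillar genes. The other fibrillar genes COL5A2, COL27A1 and COL1A1 changed less (log2 change 0.26, 0.185 and 0.17 in the fit with no filter). COL3A1 stood at 3.80 FPKM in the KYSE70 control and 21.9 with knockdown, and at 0.617 and 2.01 FPKM in KYSE450 (log2 change 1.57, SE 0.31, adjusted p = 0.268). COL5A1 went from 6.54 to 21.6 FPKM and from 0.298 to 2.11 FPKM (1.42, SE 0.21, adjusted p = 0.199). In KYSE450 both knockdown values stayed below both plasmid libraries of that line, 2.93 and 3.81 FPKM for COL3A1 and 3.07 and 4.08 FPKM for COL5A1, whereas in KYSE70 they were the highest of the 4 libraries. With 1 library per line and group, a change with knockdown and a control that stands apart cannot be told apart.

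COL4A5 went from 55.7 to 78.8 FPKM and from 22.5 to 42.9 FPKM (0.70, SE 0.17, limma, adjusted p = 0.288), and its KYSE450 knockdown value also lay below the plasmid libraries. COL12A1 stood at 6.89 and 30.4 FPKM in KYSE70, a wide gap, and at 0.795 and 1.19 FPKM in KYSE450 (1.14, SE 0.40, adjusted p = 0.361). COL26A1 went from 0.650 to 2.19 and from 2.595 to 3.09 FPKM (0.57, SE 0.25, adjusted p = 0.411). The 4 lentiviral libraries fitted on their own left 1 residual degree of freedom. That fit called 37 of 14311 genes, among them COL3A1 (limma, adjusted p = 0.00630) and COL5A1 (adjusted p = 0.00721). Both were also called without any single one of the 4 plasmid libraries, which leaves both knockdown pairs in place. Those fits take the spread from fewer pairs. Without the lentiviral control or the knockdown library of KYSE450, the knockdown change rests on KYSE70 alone. It was then 2.25 for COL3A1, 1.58 for COL5A1, 1.995 for COL12A1, 0.95 for COL26A1, 0.49 for COL4A5 and -0.54 for COL18A1. Without either of those of KYSE70 it rests on KYSE450. There it was 1.26 for COL5A1, 0.89 for COL3A1, 1.13 for COL6A1, 0.90 for COL4A5, 0.84 for COL6A2 and 0.56 for COL7A1. Fits on a lone pair called many genes outside the family, so no calls are given for these members. The lone pair is assumed there to vary like the overexpression pairs.

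Across the 20 members, 13 were higher with knockdown in both lines, where 27.1% of all genes were, and 0 lower in both, where 25.9% were. The count higher in both was 12 with median-ratio scaling (24.7% of all genes) and 18 with trends on GC content and gene length removed (27.2% of all genes). The members' median change was 0.27 and that of all genes -0.002. The knockdown library was the highest of its line for 11 members in KYSE70 (40.9% of all genes) and 9 in KYSE450 (22.8%), and the lentiviral control the lowest for 3 in KYSE70 (14.0%) and 15 in KYSE450 (31.2%). A change of at least 2-fold on FPKM + 1 was held by COL12A1, COL3A1 and COL5A1 in KYSE70 (3 members, 1.68% of all genes) and by COL6A1 and COL5A1 in KYSE450 (2 members, 0.587%). In KYSE70 the change with knockdown went with GC content across genes (Spearman's rho -0.48, against 0.04 in KYSE450), beside the higher mitochondrial share of that knockdown library; the part of either in the members' values was not tested beyond the count with the trends removed. None of the listed partner genes was called with knockdown in any of the 8 pathway lists.

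Overexpression of NMR was read against the plasmid control of the same line. No member passed (limma, 0% of all genes called, 148 at an unadjusted p under 0.05, and 0 by voom), and the changes were small. COL28A1 stood at 0.383 and 0.975 FPKM in KYSE70 and at 4.32 and 6.24 FPKM in KYSE450 (0.48, SE 0.16). COL17A1 went from 409 to 474 and from 412 to 580 FPKM (0.35, SE 0.18). Both were higher in each line. COL6A2 (0.45, SE 0.25), COL4A5 (0.30, SE 0.17) and COL4A6 (0.36, SE 0.25) followed by p, each higher in both lines, all 5 with an adjusted p of 1. In all, 10 members were higher in both lines, where 23.0% of all genes were, and 2 lower in both, where 27.6% were. The higher count was 10 with median-ratio scaling (22% of all genes) and 9 with the GC and length trends removed (22.2% of all genes). The members' median change was 0.07 and that of all genes -0.01.

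COL3A1 was lower with overexpression in both lines, at 5.95 against 9.13 FPKM in KYSE70 and 2.93 against 3.81 FPKM in KYSE450 (-0.42, SE 0.31), and higher with knockdown in both. COL4A1 had the same signs, but its overexpression changes were -0.06 and -0.01. Of all genes, 27.6% were lower in both lines with overexpression and 27.1% higher in both with knockdown. The share with both was not counted. COL5A1 stood at 0.34 and -0.32 with overexpression, KYSE70 first, and COL12A1 at 0.69 and -0.17, so neither had 1 direction there. Of the listed partner genes, none was called with overexpression.

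**Figure D5:**
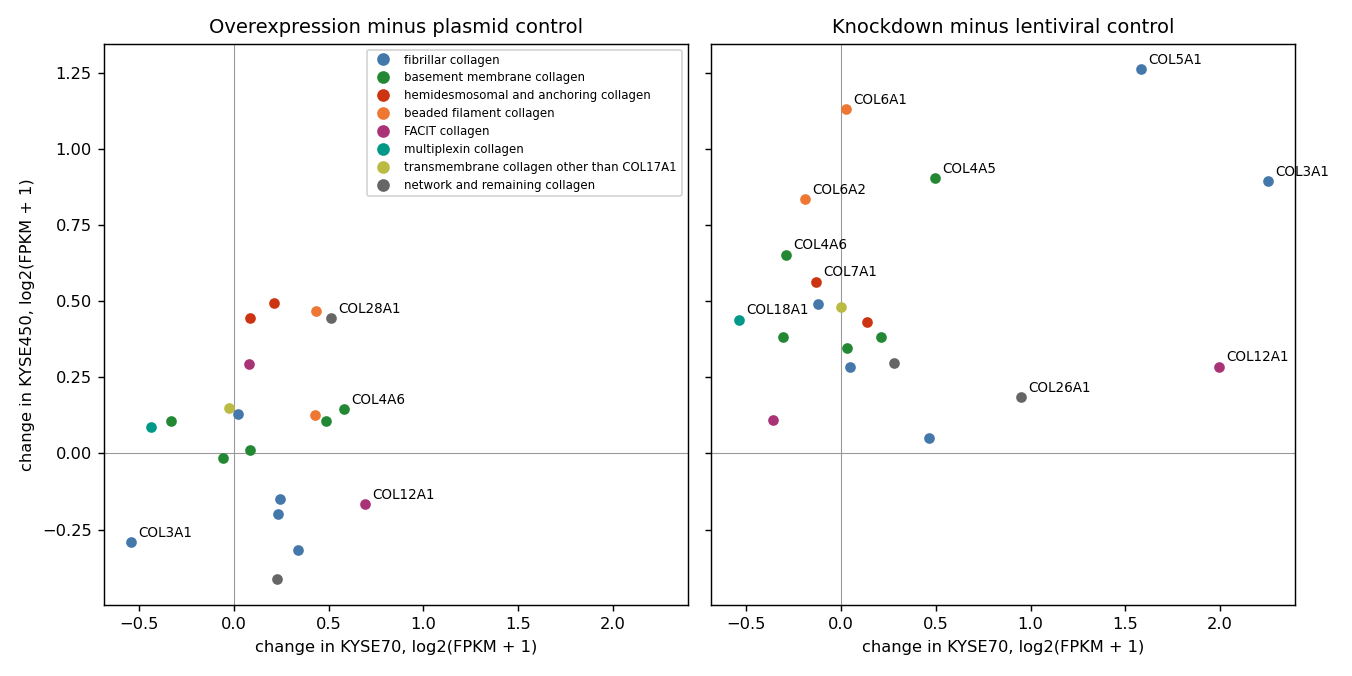
Change of the 20 tested collagen genes in KYSE70 (horizontal axis) and KYSE450 (vertical axis) with overexpression (left) and knockdown (right), each against its own control, in log2(FPKM + 1), with 1 point per gene and colors for the class. With overexpression the furthest point in KYSE70 is COL12A1 at 0.69, and with knockdown COL3A1, COL5A1 and COL12A1 reach 2.25, 1.58 and 1.995 in KYSE70.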

How the data were processed

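The deposited files give 1 value per gene for each of 8 total RNA libraries. No header or label names the unit; the deposited values were read as FPKM, made by the authors from gene counts, since they are whole reads scaled by gene length and library total. Per the submitters' processing notes, the tools were TopHat2 2.0.9 and HTSeq 0.6.1 and the build hg19; no source used here gives the annotation, the strand setting or filters. Whole reads were recovered for 30872 of 30872 genes above 0 in at least 2 libraries, within 0.005 of a whole number, and cover counting error only. Library totals were 26448153 to 38003344 reads.

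Values were tested as log2(FPKM + 1) with limma 3.58.1 (R 4.3.3) over the 14311 genes with a mean of at least 1 FPKM, and calls were made at a Benjamini-Hochberg adjusted p of 0.05. The manipulations were fitted over all 8 libraries with each treated library and its control as 1 of 4 blocks, the lines with a line term alone, the arms with cell line as a block, and the difference of the arms between lines as an interaction. Same-numbered libraries come from 1 cell line, which pairs them. Libraries of KYSE70 correlated with each other at 0.949 to 0.996, those of KYSE450 at 0.955 to 0.994, and no library of either line above 0.847 with the other line. Members with a mean of at least 1 FPKM are named with their levels, with statistics for those called and the next 5 by p; of other lists, up to 4 called genes with the largest change, of which 1 is not reported here. The members and lists were chosen with earlier results of these data known.

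Alternatives were another pseudocount, filter and scaling, voom on recovered reads, removal of GC and length trends, a small share of the other line's profile subtracted, subsets of libraries, other blocks and leaving out each library. The scripts were tested on simulated data. Positions are GENCODE release 29 on GRCh38, and promoters are RefSeq on GRCh38.p14; neither was used with hg19 positions. Protein sequences were not used here.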

Additional observations from a re-analysis of the deposited data

Results flagged for a closer look

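For 4 collagen genes the difference between the lentiviral and the plasmid libraries differed between the lines by a test of that difference (limma, KYSE70 minus KYSE450): COL6A1 by 2.11 on the log2 scale, COL6A2 by 2.10, COL26A1 by 1.87 and COL9A2 by 1.73. In KYSE70 the lentiviral libraries stood higher by 0.61, 1.61, 0.81 and 1.32, and in KYSE450 lower, at -1.49, -0.49, -1.06 and -0.40, in the same order of genes. A search for single libraries far from the other three of their line, over 40 sets of 4 values, found 0; chance flags about 1 in 20 such sets.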

How the results depend on the processing

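With overexpression, 12 genes were called in all with the 4 libraries of the manipulation alone (cell line as replicate block) and 0 to 12 without single libraries. With knockdown that paired fit called 2 members and 37 genes, a pseudocount of 0.1 called 3 genes and voom 4, and leaving out single libraries gave 2 to 6 members and 36 to 4833 genes. Without the replicate block, 0 members were called with either manipulation, as in the paired fit over 8 libraries. Between the lines, the controls alone called 3211 genes, and COL4A3 turned to 0.026 there and ranged from -0.299 to 0.001 without single libraries, never called. Between the arms, 0 members were called with no filter, with the controls or the treated libraries alone, or without the replicate block; all genes gave 0 (no filter), 878 (voom), 947 (GC and length trends removed), 73 (controls), 6 (treated) and 0 (no block), and leaving out single libraries 0 to 1 members and 0 to 2463 genes. For the difference of the arms between lines, no filter gave 0 members and 118 genes, a mean of at least 5 FPKM 2 members and 515 genes, and removed trends 1491 genes; single libraries left out gave 0 to 7 members and 36 to 5244 genes. The cause of these shifts was not tested, except that subsets hold fewer samples and filters change the genes tested. A line, a group and a library coincide, so each manipulation rests on 2 pairs.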
